A study of Mus musculus with 10 samples.

Results

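Aldehyde dehydrogenases (Aldh), alcohol dehydrogenases (Adh) and aldo-keto reductases (Akr) were examined in mouse liver with and without Nr1d1, the gene of the clock repressor Rev-erb alpha. Genes were taken by a rule on symbols, as those whose name begins with Aldh, Adh or Akr and a digit, and the families were picked with earlier results of these data known. This gave 42 of the 19933 genes measured on the array, of which 21 are Aldh, 7 Adh and 14 Akr genes. Akr1d1, the bile acid reductase of the same superfamily, fits the symbol pattern but was left out, at a difference between the genotypes of 0.33 on the log2 scale (limma adjusted p = 0.16, not called), above that of any member. The wild-type (WT) group was 5 male C57Bl/6 mice bought from a supplier. The knockout (KO) group was 5 male mice of genotype Nr1d1-/-, bred onto C57Bl/6 for at least 7 generations, so the genotype and the origin of the mice cannot be told apart. Mice of both groups were 10 to 12 weeks old, ate normal chow, were kept on a cycle with 12 h of light a day, and were sampled at ZT10, 10 h after lights on. RNA of each liver went singly onto an Affymetrix Mouse Gene 1.0 ST array. Values are log2 intensities of 1 probe set a gene, differences are KO minus WT with the standard error (SE) of the limma fit, and a gene was called at a Benjamini-Hochberg adjusted limma p under 0.05 over all 19933 genes. Levels of different probe sets are not comparable, since probes differ in how well they bind.

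The 3 families handle alcohols and carbonyls. Alcohol dehydrogenases oxidise ethanol, retinol and other alcohols to aldehydes with NAD, and aldehyde dehydrogenases carry aldehydes on to acids, among them acetaldehyde, retinaldehyde, fatty aldehydes and semialdehydes from amino acid breakdown. Aldo-keto reductases mostly run the other way and reduce aldehydes and ketones with NADPH, and several Akr1c enzymes act on steroids. Hepatocytes are a main site of all 3 families.

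The samples were checked as follows. The only Nr1d1 probe set read 9.60 to 10.00 in WT and 9.29 to 10.54 in the mice labelled KO, with a difference of 0.14 (limma adjusted p = 0.803). No source used here says whether it covers the deletion, so it does not check the genotype labels. Arntl, a clock gene repressed by Rev-erb alpha, rose by 2.13 on the log2 scale (limma adjusted p = 3.22e-06). The mean of 10 hepatocyte markers was 13.56 to 13.60 in WT and 13.53 to 13.61 in KO, near the array maxima of 14.09 to 14.16 (log2). Whether signal so bright still follows the amount of RNA was not tested. Of 74 markers of 10 other cell types or tissues, 2 were called, where 5.61% of all genes were. They were the bile duct factor Sox9 and the intestinal fatty acid binding gene Fabp2, both higher in KO. The summed level of the 7 bile duct markers was 9.54 to 9.71 in WT and 9.76 to 10.06 in KO (log2), with 2 of the 7 under the lower quartile of all arrays. That of the 7 stomach and intestine markers was 10.84 to 11.03 in WT and 11.06 to 11.59 in KO, with none that low. Such sums mostly follow the brightest probe sets, here Sox9 (8.03 in WT, 8.65 in KO) and Fabp2 (9.99 in WT, 10.41 in KO). The other bile duct markers differed by -0.11 to 0.11, and the other stomach and intestine markers by -0.07 to 0.35. Of the 10 sinusoidal endothelial markers 0 were called by limma, 2 (Stab2 and Clec4g) had an unadjusted p under 0.05 and 8 were higher in KO, with a median difference of 0.16 and summed levels of 13.05 to 13.47 in WT and 13.18 to 13.53 in KO, none under the lower quartile. The part of these 3 lists in the results below was not tested. The 3 arrays with the widest spread of values were WT replicate 1 and KO replicates 4 and 5.

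Few of the 42 genes were called. Adh6-ps1 fell, and Aldh6a1 and Aldh1a7 rose, which makes 3 of 42 (7.14%) against 5.61% of all genes. By direction, 2 of 42 rose against 3.17% and 1 fell against 2.44%, and 1 call went past 1.5-fold against 1.33% of all genes. These shares are near the background, and the median difference of the members was 0.02 against 0.01 over all genes. Of the 42, 24 differed by less than 0.1 on the log2 scale, and 2 by more than 0.5. The WT and KO arrays did not overlap in 6 members (14.3%), against 7.00% of all genes. They were Aldh1a7, Aldh1a1, Aldh6a1, Aldh9a1 and Akr1e1, higher in KO (5 of 42, against 3.99%), and Adh6-ps1, lower in KO (1 of 42, against 3.02%). Among the 17 members with a mean log2 intensity of at least 11, 4 had no overlap (23.5%), against 23.6% of all genes that bright. Of those 17, 2 were called (11.8%), against 15.9%. That limit was set after the data were seen. An unadjusted limma p under 0.05 was found for 16 of 42 (38.1%, against 17.4%), with 12 higher in KO (28.6%, against 8.97%) and 4 lower (against 8.40%). Without the 3 arrays of widest spread limma called 0 of 42, with 10 at an unadjusted p under 0.05. Whole liver was measured, so fewer cells of a type and less RNA per cell cannot be told apart.

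**Figure D1:**
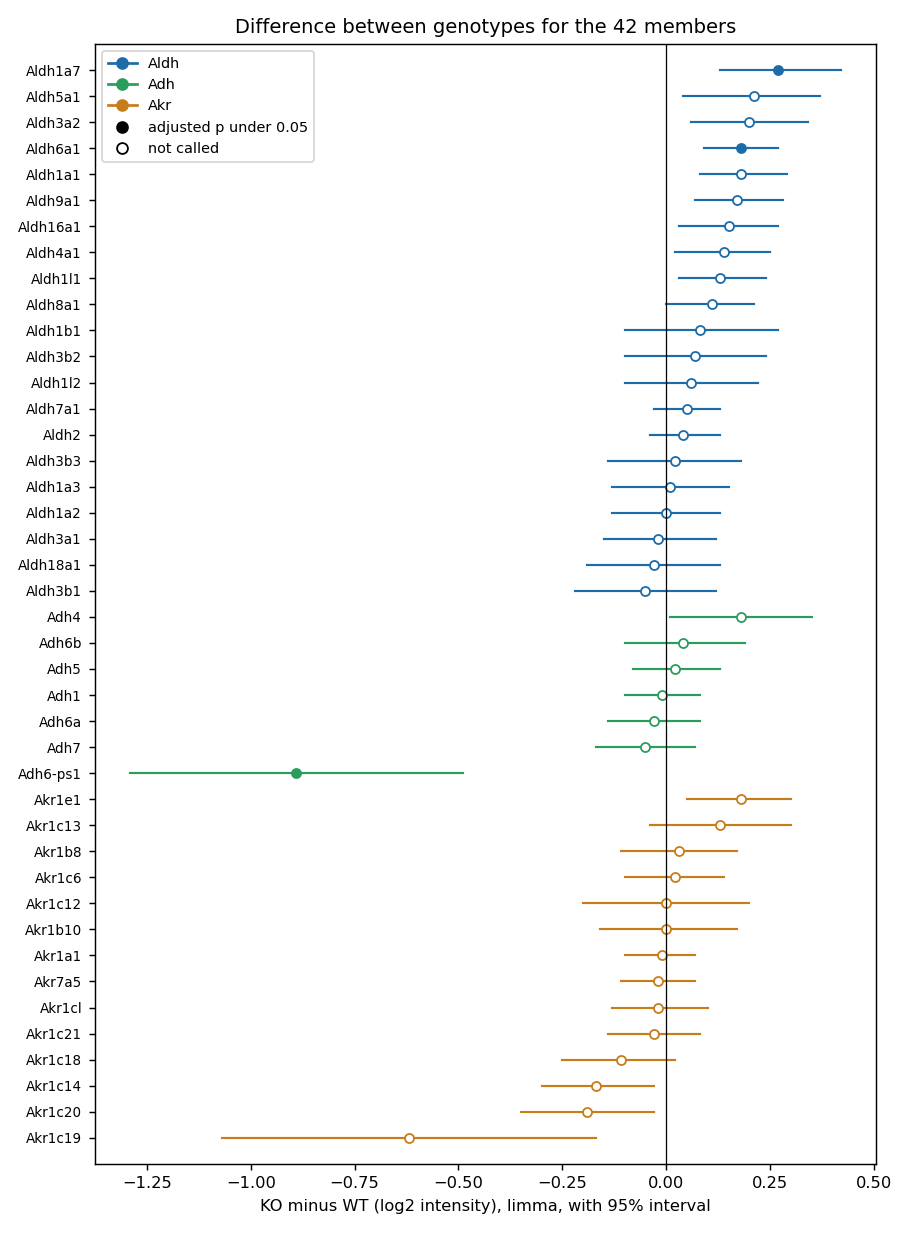
KO minus WT difference in log2 intensity (horizontal axis) for each of the 42 genes, with its 95% limma interval, coloured by family and filled where the adjusted p was under 0.05. Adh6-ps1, at -0.89, and Akr1c19, at -0.62, lie apart from the others, which fall between -0.19 and 0.27, and 18 of 21 Aldh genes lie above 0.

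Aldh1a1 and Aldh1a7 are neighbouring paralogs on chromosome 19. Aldh1a1 encodes the cytosolic retinaldehyde dehydrogenase of hepatocytes, and Aldh1a7 is a rodent gene next to it. Aldh1a7 (probe set 10466624) read 11.62, 11.41, 11.45, 11.69 and 11.68 in WT replicates 1 to 5. In KO replicates 1 to 5 it read 11.91, 11.91, 11.85, 11.76 and 11.77. The highest WT value was thus under the lowest KO value, and WT replicates 2 and 3 were the lowest. It rose 1.21-fold, from 11.57 ± 0.13 to 11.84 ± 0.075 (SD, n = 5 each), and the difference was 0.27 with SE 0.066 and limma adjusted p = 0.0301. The call was lost without WT replicate 2 (0.0687), WT replicate 3 (0.0758), KO replicate 1 (0.0711), KO replicate 2 (0.0768) or KO replicate 3 (0.0647), each an adjusted p with 1 array fewer.

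Aldh1a1 (probe set 10461979) read 13.18, 13.03, 13.11, 13.22 and 13.18 in the WT livers and 13.32, 13.38, 13.24, 13.38 and 13.31 in the KO livers. The groups did not overlap here either, though KO replicate 3 at 13.24 was close to WT replicate 4 at 13.22. The difference was 0.18 with SE 0.050 (95% interval 0.08 to 0.29), and at a limma adjusted p of 0.0524 it did not pass. It passed in 7 of 19 other settings (adjusted p 0.0132 to 0.196 over all 19). The pair are close paralogs, and either probe set may also bind the transcript of the other, so each value is uncertain.

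The start regions of the pair are shown because the neighbours differed in the same direction. RefSeq promoter windows of GRCm38.p6 reach from 250 bases before to 50 bases after the start. Aldh1a7 (chr19:20727507-20727806, minus strand) and the window of Aldh1a1 most like it (chr19:20601718-20602017, plus strand) were identical in 223 of 315 aligned columns (70.8%). Capitals mark their longest shared run, 65 bases that begin 94 bases before each start.
Aldh1a7: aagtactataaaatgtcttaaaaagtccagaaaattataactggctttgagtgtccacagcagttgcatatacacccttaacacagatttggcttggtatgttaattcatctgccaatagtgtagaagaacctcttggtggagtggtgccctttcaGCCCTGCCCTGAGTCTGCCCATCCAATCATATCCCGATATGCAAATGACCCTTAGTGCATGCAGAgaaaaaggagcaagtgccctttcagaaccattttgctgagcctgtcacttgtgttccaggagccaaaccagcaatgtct
Aldh1a1: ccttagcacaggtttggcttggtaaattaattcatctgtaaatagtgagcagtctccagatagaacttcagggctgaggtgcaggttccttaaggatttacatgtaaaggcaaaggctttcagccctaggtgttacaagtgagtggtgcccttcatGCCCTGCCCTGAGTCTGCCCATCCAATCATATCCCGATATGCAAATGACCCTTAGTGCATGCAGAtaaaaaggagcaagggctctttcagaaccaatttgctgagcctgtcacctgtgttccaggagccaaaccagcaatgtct
Neither window, nor the second Aldh1a1 window, holds AGGTCA, the half-site of Rev-erb and ROR receptors, or TGACNNNGC, the core of the antioxidant response element, on either strand.

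Like Aldh1a1, the retinaldehyde dehydrogenases Aldh1a2 and Aldh1a3 were not called. Aldh1a2, which makes retinoic acid in embryonic and mesenchymal tissue, read 5.27 ± 0.094 in WT and 5.28 ± 0.093 in KO (SD, n = 5 each), under the lower quartile of all arrays. Aldh1a3 differed by 0.01 (95% interval -0.13 to 0.15).

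Aldh6a1 encodes the mitochondrial methylmalonate semialdehyde dehydrogenase of valine breakdown and lies on chromosome 12. It (probe set 10401473) read 12.11, 12.11, 12.06, 12.16 and 12.18 in WT and 12.31, 12.29, 12.30, 12.35 and 12.29 in KO. All KO livers lay above all WT livers, in the narrow range of 12.29 to 12.35. The rise was small, 1.14-fold, from 12.13 ± 0.050 to 12.31 ± 0.023 (SD, n = 5 each), with a difference of 0.18, SE 0.041 and limma adjusted p = 0.0209. The call was lost with arrays centred on their medians (adjusted p = 0.0606), and without WT replicate 2 (0.0521), WT replicate 3 (0.0526) or KO replicate 4 (0.0555).

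Aldh6a1 has 2 start windows in the RefSeq table, shown because it is the called gene with a receptor half-site. Capitals mark AGGTCA, which lies at -94 to -89 from the start in one window and is absent from the other.
Aldh6a1, chr12:84448268-84448567, minus strand: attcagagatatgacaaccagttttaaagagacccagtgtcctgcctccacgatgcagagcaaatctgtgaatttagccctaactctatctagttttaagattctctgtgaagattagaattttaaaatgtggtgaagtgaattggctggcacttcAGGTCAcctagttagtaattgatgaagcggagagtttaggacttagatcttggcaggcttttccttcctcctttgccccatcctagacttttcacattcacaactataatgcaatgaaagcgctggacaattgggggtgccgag
Aldh6a1, chr12:84450975-84451274, minus strand: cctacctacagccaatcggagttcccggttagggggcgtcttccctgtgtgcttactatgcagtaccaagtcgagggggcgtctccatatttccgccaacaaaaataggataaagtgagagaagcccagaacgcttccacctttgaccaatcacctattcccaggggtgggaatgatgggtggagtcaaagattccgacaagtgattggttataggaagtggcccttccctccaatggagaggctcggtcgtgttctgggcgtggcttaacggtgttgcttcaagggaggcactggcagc
Of the 42 members 33 had a window, 36 windows in all. AGGTCA on either strand was in 7 of the 36 (19.4%) and in 16.3% of 32851 windows of all genes. TGACNNNGC was in 5 of the 36 (13.9%) and in 12.4% of all windows. The windows with AGGTCA belonged to Adh4, with 2 copies at -133 and -11, Aldh3b1, with 2 copies at -164 and -39, Aldh1l1, Aldh6a1, Akr1b10, Akr1c18 and Akr7a5. Those with TGACNNNGC belonged to Aldh9a1, Aldh1a2, Adh6a, Akr1c19 and Akr1cl. These matches describe letters in the window and are not shown to be bound. Adh6-ps1 was among the members with no window.

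The other 5 enzymes of amino acid and related breakdown did not pass. Aldh9a1, which oxidises trimethylaminobutyraldehyde on the way to carnitine, read 12.37, 12.26, 12.29, 12.32 and 12.31 in WT and 12.41, 12.48, 12.63, 12.45 and 12.45 in KO. The groups did not overlap, KO replicate 3 was the highest, and the difference was 0.17 with SE 0.049 (limma adjusted p = 0.0611). Aldh4a1 of proline breakdown differed by 0.14 (adjusted p = 0.174) and Aldh5a1, the succinate semialdehyde dehydrogenase of GABA breakdown, by 0.21 (adjusted p = 0.165). Aldh8a1, a cytosolic enzyme of the kynurenine route, differed by 0.11 (adjusted p = 0.277) and Aldh7a1 of lysine breakdown by 0.05 (adjusted p = 0.626). With Aldh6a1 these are 6 enzymes, of which 6 had a positive difference, against 54.1% of all genes. Of the 6, 1 was called (16.7%), against 5.61% of all genes and 15.9% of those with a mean log2 intensity of at least 11. All 10 Aldh genes that bright, some of them among these 6, also had a positive difference. The direction was therefore not particular to this group. Aldh18a1, which works in proline synthesis instead, differed by -0.03 (95% interval -0.19 to 0.13).

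Enzymes of acetaldehyde, folate and fatty aldehydes gave no call. Aldh2, the main mitochondrial acetaldehyde dehydrogenase, read 12.85 ± 0.030 in WT and 12.90 ± 0.017 in KO (SD, n = 5 each), and its difference of 0.04 had a 95% interval of -0.04 to 0.13. Its mitochondrial relative Aldh1b1 differed by 0.08 (interval -0.10 to 0.27). Aldh1l1, the cytosolic formyltetrahydrofolate dehydrogenase, differed by 0.13 with SE 0.050 (limma adjusted p = 0.162), and its mitochondrial counterpart Aldh1l2 by 0.06. Aldh3a2, the microsomal fatty aldehyde dehydrogenase, differed by 0.20 with SE 0.064 (limma adjusted p = 0.101). It read 11.85 to 12.10 in WT and 12.00 to 12.28 in KO, and 4 of 5 KO livers lay above all WT livers. Its neighbour Aldh3a1, an enzyme known from stomach and cornea, differed by -0.02, and Aldh3b1, Aldh3b2 and Aldh3b3 by -0.05, 0.07 and 0.02. The 3 single-symbol probe sets of Aldh3b3 differed by -0.18 to 0.02 and the probe set it shares with Aldh3b2 by -0.07, none of them called. Aldh16a1, which lacks a normal catalytic site, differed by 0.15 (adjusted p = 0.144), with 4 of 5 KO livers above all WT livers.

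As a family, the Aldh genes mostly read higher in KO. Of the 21, 18 had a positive difference (85.7%, against 54.1% of all genes), and the median difference was 0.08 against 0.01. An unadjusted limma p under 0.05 with a higher KO level was found for 10 of 21 (47.6%) against 8.97% of all genes, and 0 of 21 had one with a lower level. Among the 10 Aldh genes with a mean log2 intensity of at least 11, a limit set after the data were seen, 8 were of that kind, against 23.8% of all 1309 genes so bright. Of those 10, 2 were called, against 15.9% of the 1309, and in 4 the KO livers lay above the WT livers without overlap, against 209 of the 1309. Of all 17 members that bright, 11 had an unadjusted p under 0.05 (64.7%, against 39.2%), 9 higher and 2 lower, the latter against 15.4%. The number of all 21 Aldh genes with an unadjusted p under 0.05 was 6 without the 3 arrays of widest spread and 7 without KO replicate 4. In single livers, the median deviation of the 20 Aldh genes other than Aldh1a2 from their WT means was -0.04 to 0.05 in WT and 0.07 to 0.12 in KO, where the median over all genes was -0.01 to 0.01 in WT and -0.02 to 0.03 in KO.

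**Figure D2:**
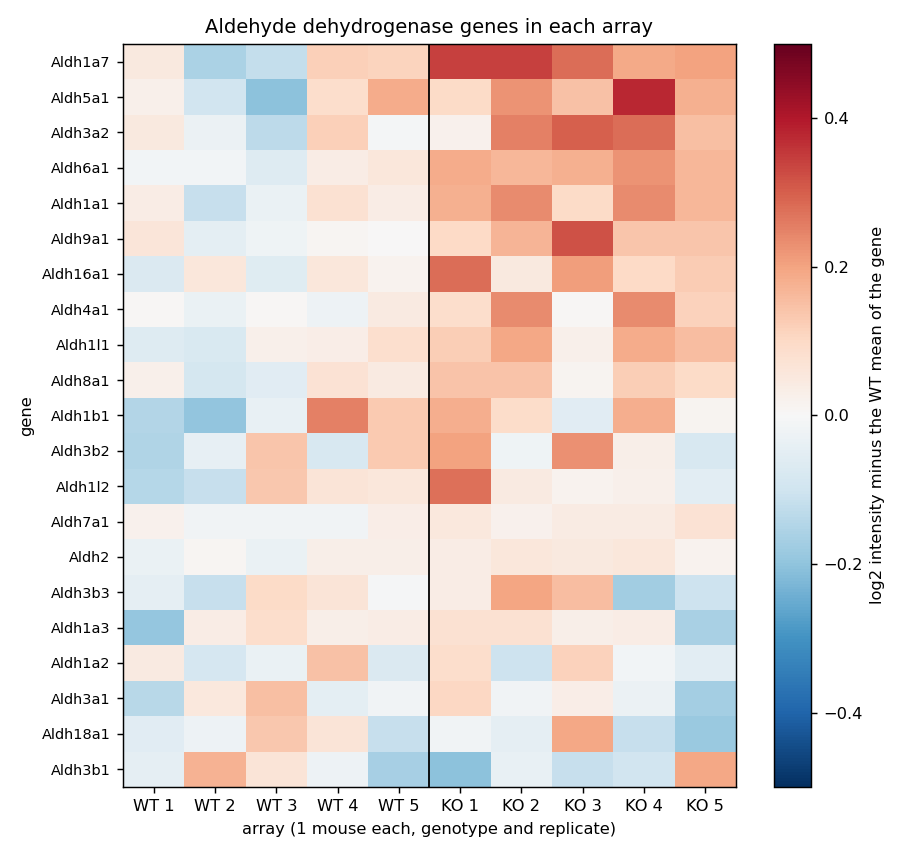
Log2 intensity minus the WT mean of the gene (colour) for the 21 Aldh genes (rows, ordered by difference) in the 10 arrays (columns). The upper 10 rows are above the WT mean in nearly all KO arrays, with differences of 0.11 to 0.27, while the lower rows differ by 0.08 or less, among them Aldh7a1 and Aldh2, where 4 of 5 KO arrays still lie above all WT arrays.

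Adh6-ps1 showed the largest difference of all 42 genes. It is annotated as a transcribed pseudogene and lies among the 7 Adh genes clustered on chromosome 3. Its probe set (10496462) read 11.34, 11.85, 11.47, 10.55 and 11.08 in WT and 10.17, 10.52, 10.41, 10.41 and 10.32 in KO. The KO livers were all below the WT livers, but WT replicate 4 at 10.55 was close to KO replicate 2 at 10.52, and WT livers varied more, with an SD of 0.48 against 0.13. Adh6-ps1 fell 1.86-fold, from 11.26 ± 0.48 to 10.36 ± 0.13 (SD, n = 5 each), and the difference was -0.89 with SE 0.18 and limma adjusted p = 0.0133. The call held in each of 10 fits without 1 array, with differences of -1.07 to -0.74. Without the 3 arrays of widest spread it was lost at a like difference of -0.87 (adjusted p = 0.133).

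None of the other 6 Adh genes was called by limma, and 1 (Adh4) had an unadjusted p under 0.05. Adh1, the classical ethanol and retinol dehydrogenase of liver, read 13.84 ± 0.038 in WT and 13.84 ± 0.034 in KO (SD, n = 5 each), and the 95% interval of its difference was -0.10 to 0.08. It too lies near the array maxima, where the response to the amount of RNA was not tested. Adh5, which oxidises glutathione-bound formaldehyde, read 12.14 in WT and 12.16 in KO as group means (interval of the difference -0.08 to 0.13), and Adh7, the stomach form, 8.17 and 8.12 (interval -0.17 to 0.07). Adh4, the class II enzyme, read 12.35, 12.06, 12.13, 12.33 and 12.37 in WT and 12.28, 12.58, 12.50, 12.41 and 12.37 in KO. The groups overlapped, and its difference of 0.18 did not pass (SE 0.076, limma adjusted p = 0.237). Adh6a and Adh6b, which share the Adh6 name with the pseudogene, lay under the lower quartile of all arrays. Their group means were 5.80 and 5.78 for Adh6a and 5.87 and 5.91 for Adh6b. The sequences of the Adh6 genes were not compared here. Their transcripts may share signal, so which of them the probe set of Adh6-ps1 reads is uncertain.

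**Figure D3:**
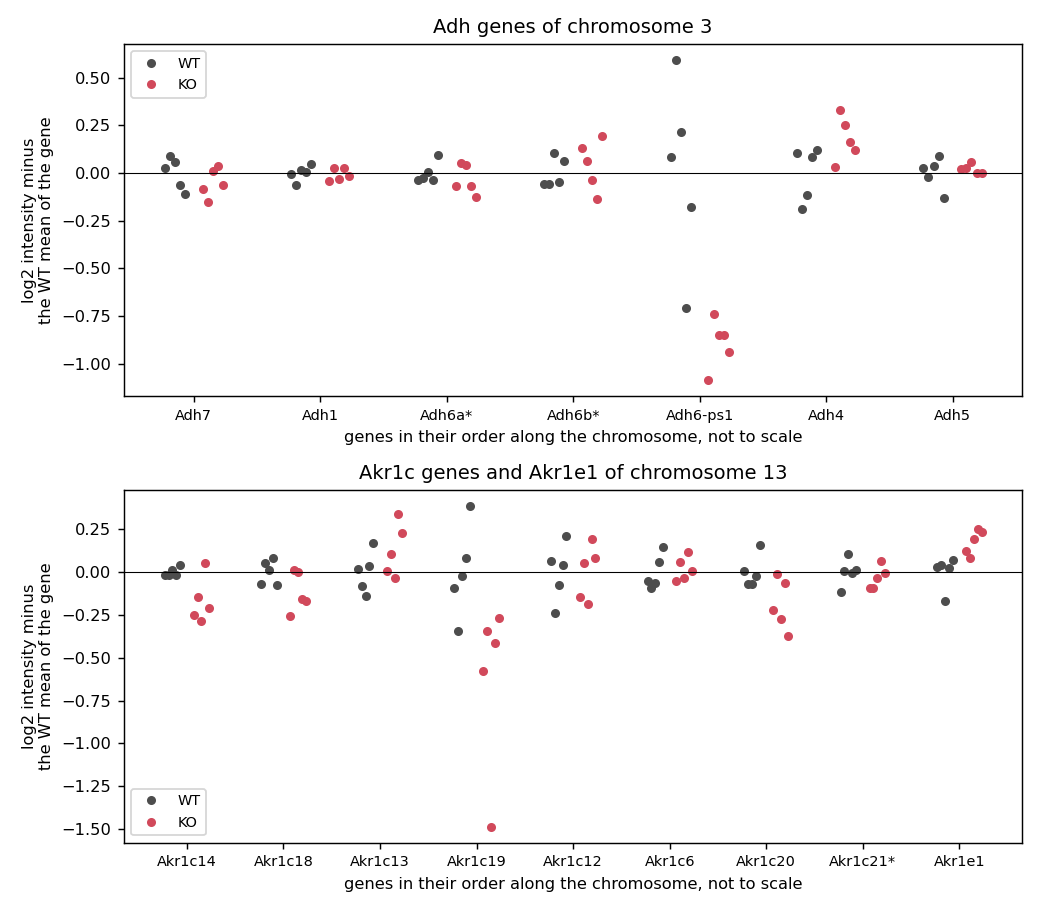
Log2 intensity minus the WT mean of the gene, 1 point per liver, for the 7 Adh genes of chromosome 3 (upper panel) and for the 8 Akr1c genes and Akr1e1 of chromosome 13 (lower panel). An asterisk marks genes under the lower quartile of all arrays. In Adh6-ps1 the WT and KO livers do not overlap while those of the other 6 Adh genes do, and 1 KO liver of Akr1c19 reads far below the others.

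None of the 14 Akr genes was called by limma, against 5.61% of all genes, and 4 of 14 had an unadjusted p under 0.05 (28.6%, against 17.4%), 1 higher and 3 lower in KO. The 8 Akr1c genes, reductases of steroids and other ketones, and Akr1e1, a reductase of anhydrofructose, are clustered on chromosome 13. Akr1c19 read 11.06, 10.81, 11.13, 11.24 and 11.54 in WT and 10.58, 10.81, 9.67, 10.74 and 10.89 in KO. The groups overlapped, with KO replicate 5 at 10.89 above WT replicate 2 at 10.81, and KO replicate 3 was the lowest. The difference was -0.62 with SE 0.21 and limma adjusted p = 0.116, and without KO replicate 3 it was -0.40 (adjusted p = 0.105), a size smaller by over 1.5 times. Akr1c14, a 3-alpha-hydroxysteroid dehydrogenase, read 12.75 to 12.81 in WT and 12.48 to 12.82 in KO, where replicate 4 held the 12.82. Its difference of -0.17 did not pass with all arrays (SE 0.061, adjusted p = 0.156) and passed without KO replicate 4, at -0.22 (adjusted p = 0.0223). Akr1c20 differed by -0.19 (adjusted p = 0.192).

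At the end of that cluster Akr1e1 went the other way. It read 10.53, 10.54, 10.33, 10.52 and 10.57 in WT and 10.62, 10.58, 10.69, 10.75 and 10.73 in KO. The groups did not overlap but came close, at 10.57 in WT replicate 5 and 10.58 in KO replicate 2. The difference was 0.18 with SE 0.056 and limma adjusted p = 0.0979, so it did not pass. Akr1c6, the 17-beta-hydroxysteroid dehydrogenase of liver, differed by 0.02 (95% interval -0.10 to 0.14) and Akr1c13 by 0.13 (interval -0.04 to 0.30). The interval of Akr1c12 was -0.20 to 0.20. Akr1c18, known for its 20-alpha-hydroxysteroid dehydrogenase activity in the ovary, differed by -0.11 at a low level (5.91 to 6.03 in the group means), and Akr1c21 and Akr1cl, the latter on chromosome 1, lay under the lower quartile of all arrays. Akr1c genes are close paralogs whose probe sets may share signal, so each value is uncertain.

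The intervals of the remaining aldo-keto reductases included 0. Akr1a1, the general aldehyde reductase, read 12.81 ± 0.024 in WT and 12.79 ± 0.032 in KO (SD, n = 5 each; interval of the difference -0.10 to 0.07). Akr7a5, the aflatoxin aldehyde reductase, differed by -0.02 (interval -0.11 to 0.07). Akr1b8 and Akr1b10, neighbouring aldose reductase relatives on chromosome 6, had intervals of -0.11 to 0.17 and -0.16 to 0.17.

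**Figure D4:**
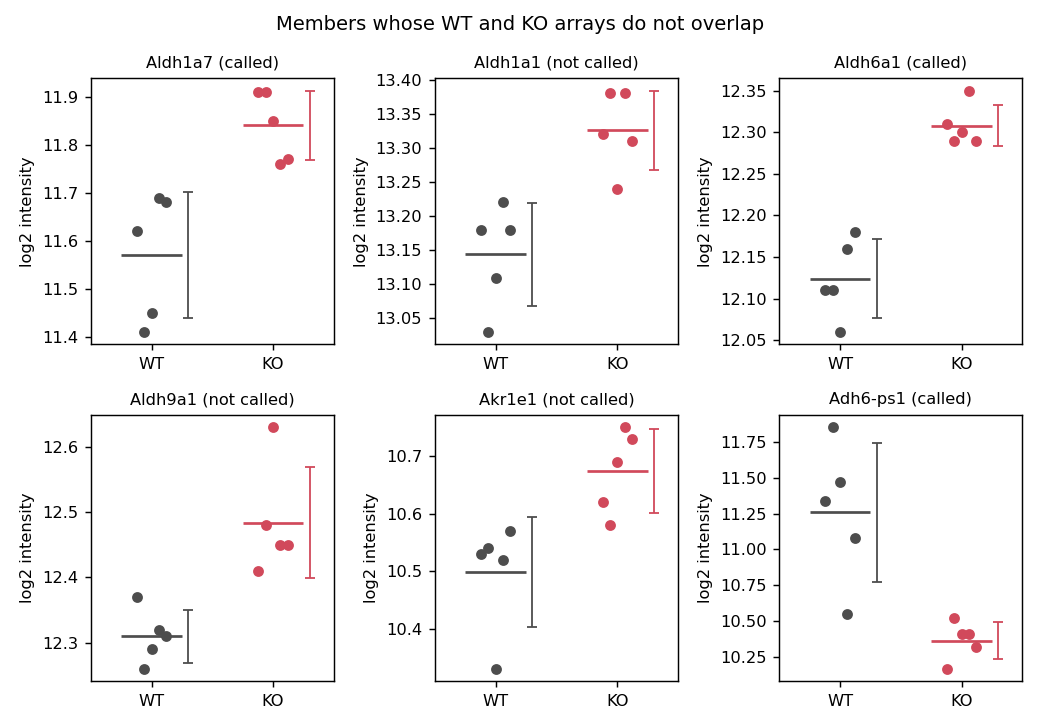
Log2 intensity of the 6 members whose WT and KO livers do not overlap, 1 point per liver, with the group mean (bar) and SD (whisker), each panel on its own axis that does not start at 0. The groups come closest in Akr1e1, with 10.57 in WT against 10.58 in KO, and are parted more clearly in Aldh6a1, where all KO livers lie between 12.29 and 12.35.

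The spread between livers was near that of all genes. The median SD of the 42 members was 0.089 in WT and 0.097 in KO, against 0.095 and 0.098 over all genes. The largest SDs among them were those of Adh6-ps1 in WT (0.48) and Akr1c19 in KO (0.50).

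Enzymes of other families also handle alcohols and carbonyls. Of 29 measured, 6 rose, 2 fell and 21 did not pass, with a median difference of 0.05. The 8 calls are 27.6%, against 5.61% of all genes and 15.9% of those with a mean log2 intensity of at least 11. This list and those below were chosen with earlier results of these data known, so such shares are counts and not tests. Dhrs9, a retinol and steroid dehydrogenase, rose by 1.47 (limma adjusted p = 0.000503), the retinaldehyde reductase Dhrs3 by 0.55 (0.000312) and the xylulose reductase Dcxr by 0.34 (0.000194). Ptgr2 rose by 0.24 (0.0254), while the carbonyl reductase Cbr1 fell by 0.49 (0.0101) and Ptgr1 fell by 0.36 (0.00282). The count of 8 dropped to 4 without the 3 arrays of widest spread and to 5 with arrays centred on their medians or without WT replicate 2, WT replicate 3, KO replicate 4 or KO replicate 5. The ethanol-oxidising cytochrome Cyp2e1 differed by 0.02, and the aldehyde oxidases Aox1 and Aox3 by -0.14 and -0.16, none called.

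Genes that bring in, store and act on retinoids went both ways. Of 22 measured, 5 rose, 1 fell and 16 did not pass, with a median difference of 0.02. The 6 calls are 27.3%, against 5.61% of all genes. The carotenoid oxygenase Bco2 rose by 0.79 (limma adjusted p = 0.00027), the retinol dehydrogenases Rdh16 by 0.48 (0.00757) and Rdh10 by 0.23 (0.0352), and Lpl, which releases lipids from lipoproteins, by 0.98 (0.000405). Dhrs3, in this list too, is the remaining rise. Bco1, which cleaves beta-carotene to retinaldehyde, fell by 0.30 (0.0143). The retinoic acid targets Rarb and Cyp26a1 differed by -0.54 (adjusted p = 0.107) and 0.12 (0.957).

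Several Aldh and Akr genes are known targets of Nrf2, the oxidant sensor, or of the xenobiotic receptors CAR and PXR. The list of 22 Nrf2 genes holds targets, Nrf2 itself (Nfe2l2, difference 0.07) and its inhibitor Keap1 (-0.09). Of the 22, 2 were called (9.09%, against 5.61% of all genes). Gstm4 rose by 0.33 (limma adjusted p = 0.0293) and Gsta4 fell by 0.47 (0.0295), and 20 did not pass, with a median of -0.05. The count of 2 was 1 with arrays centred on their medians, and 0 to 1 without WT replicate 1, 2 or 3 or without KO replicate 1, 2, 3 or 4. Nqo1 differed by 0.23 (adjusted p = 0.407) and Gclc by 0.20 (0.209). The list of 22 CAR and PXR genes holds targets and the receptors themselves, CAR (Nr1i3) and PXR (Nr1i2). Of the 22, 9 rose, 1 fell and 12 did not pass, with a median of 0.18. The 10 calls are 45.5%, against 5.61% of all genes. The list was chosen with earlier results of these data known, so this share is a count and not a test. Among the rises was Nr1i3, by 0.62 (limma adjusted p = 0.0409), while Nr1i2 differed by 0.16 (0.256). Cyp2b10, the classical CAR target, rose by 2.43 (limma adjusted p = 0.000414), the glutathione transferase Gstt3 by 1.15 (2.05e-06), the estrogen sulfotransferase Sult1e1 by 3.98 (6.42e-06) and Cyp2c37 by 0.41 (0.00161). Cyp2b9 and Cyp2b13, close paralogs that may share signal, rose by 5.09 (0.000145) and 4.62 (4.31e-07). The PXR target Cyp3a11 differed by 0.02 (0.923). Meg3 was the gene that fell, by 0.54 (0.0142). The 12 that did not pass ranged from -0.41 (Alas1) to 0.23 (Slco1a4), with Abcc2, Abcc3 and Ces2a at 0.01, 0.00 and 0.04.

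**Figure D5:**
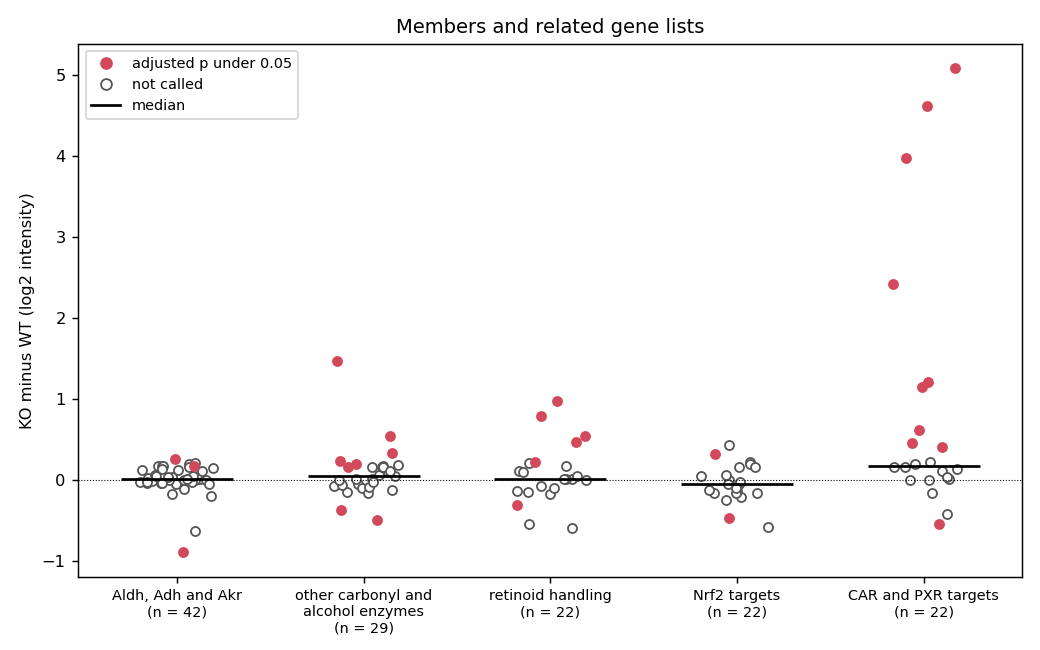
KO minus WT difference in log2 intensity (vertical axis) for the 42 Aldh, Adh and Akr genes and 4 related lists, 1 point per gene, filled where the adjusted p was under 0.05, with the median as a bar. Only the CAR and PXR list among these 5 reaches beyond 2, and its median of 0.18 is the highest of the 5. The lists were chosen with earlier results of these data known.

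Hepatocytes near the central vein and near the portal vein differ in these enzymes, so genes of both zones were read. Of 13 genes of central hepatocytes, 3 rose (Slc13a3, Cyp2c37 and Lect2), which is 23.1% against 5.61% of all genes, and 10 did not pass. The summed level of the 13 was 15.99 to 16.11 in WT and 16.07 to 16.16 in KO (log2). Of 8 genes of portal hepatocytes, 3 rose (Hal, Ctsc and Apoa4), which is 37.5%, and 5 did not pass. The summed level of the 8 was 15.50 to 15.57 in WT and 15.61 to 15.73 in KO. The part of either zone in the Aldh values was not tested.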

How the data were processed

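The authors deposited 1 table of normalized intensity on a linear scale, 27541 probe sets by 10 arrays, made with RMA and Partek per the submitters' processing notes, which give no versions. RMA summarises probes and brings arrays to a like distribution, so small shifts depend on that step. Log2 was taken without a pseudocount. Array medians were 156 to 165, and no detection calls were given, so signal over background is unknown and the number of arrays limits the precision. Of the probe sets, 21631 had 1 gene symbol in the platform annotation, and the one of highest mean stood for each gene. KO was compared with WT by limma 3.58.1 (R 4.3.3; lmFit, eBayes, two-sided, no covariates), which was tested on simulated data. The recovery required there concerned changes of at least 1 on the log2 scale. Every difference of a member was smaller, so that requirement does not cover them. Smaller changes were simulated too, but their recovery is not given here. Windows of promoter sequence were searched on both strands. A planned comparison of the members' proteins by identity was not run. Groups of neighbouring members have at most 10 RefSeq genes (GRCm38.p6, used for order) between them.

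Every member is named, and per-array values are given for called members, those whose groups did not overlap and a few chosen after their values were seen. Members and lists were chosen with earlier results of these data known, and lists were counted, not tested. Of the lists, up to 6 called genes of smallest adjusted p are named, and a few others after their values were seen. Alternatives were other probe set rules, scalings, a pseudocount, a filter on dim genes, array weights, trended eBayes and leaving out arrays.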

Additional observations from a re-analysis of the deposited data

Results flagged for a closer look

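In 7 of 84 groups of 5 arrays, 1 array stood far from the other 4 by Dixon's test at the 95% level, and chance alone marks about 1 group in 20. Akr1c19 in KO replicate 3 read 9.67, where the next KO array read 10.58. Akr1e1 in WT replicate 3 read 10.33 against 10.52 for its nearest array, and Akr1b8 in the same mouse read 6.04 against 6.26. Aldh1a3 was low in WT replicate 1 at 6.66 and in KO replicate 5 at 6.69, against 6.88 for the nearest array of each group. Aldh1l2 was high in KO replicate 1 at 6.50, against 6.27, and Akr1cl in KO replicate 5 at 5.22, against 5.05.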

How the results depend on the processing

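The count of members called higher, 2 with all arrays, was 1 with arrays centred on their medians, 4 with a pseudocount of 16, 4 with trended and robust eBayes, and 0 without the 3 arrays of widest IQR. Leaving out single arrays gave 0 to 3, with the 0 without WT replicate 2 or WT replicate 3, where limma still gave 10 and 9 higher members at an unadjusted p under 0.05. The count called lower, 1 with all arrays, was 0 without the 3 arrays of widest IQR and 1 to 2 without single arrays, with the 2 without KO replicate 4. Without those 3 arrays 10 members had an unadjusted p under 0.05, and 527 genes were called on the whole array against 1119, with fewer arrays in the fit. Without single arrays that number was 805 to 1248. Aldh9a1 was called with a pseudocount of 16 and with trended eBayes, Aldh3a2 without KO replicate 1 and Akr1c14 without KO replicate 4. No called difference of a member changed sign in any of the 19 settings. Counts of small lists also moved: the stomach and intestine list had 1 call (Fabp2) or 0, the bile duct list 1 (Sox9) or 0 without the 3 arrays, the sinusoidal endothelial list 0 or, with quantile normalization, 1, and the stellate list 0 or, without KO replicate 1, 1. Signal over background is unknown, so for Aldh1a2, Adh6a, Adh6b, Akr1c21 and Akr1cl a difference may not be detectable. No paired analysis was possible because the labels give no number shared between the genotypes. The causes of these shifts were not tested.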
